A study of Homo sapiens with 3 samples.

Results

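The 9 genes described here build the tight junction of epithelial cells and were measured in the human cell line KYSE510, which was established from a squamous carcinoma of the esophagus. They are the claudins CLDN1, CLDN4, CLDN7 and CLDN12, the MARVEL proteins OCLN and MARVELD2, the junctional adhesion molecule F11R, and the scaffolds TJP1 and TJP3. They were chosen by name, as the Entrez identifiers that map to these symbols, with earlier results of these data known. They make up 9 of the 19266 genes in the tables. All 9 passed the filter on low counts, which kept 13580 genes. The study targeted the transcript TCONS_02256997 with hairpins to screen for genes that might depend on it. That transcript itself was not analysed here, so how far its level fell is not shown. The control received a lentivirus with a scrambled short hairpin RNA, and sh1 and sh2 each received a lentivirus with a different hairpin against the transcript. Infection lasted 24 h and was followed by 48 h under 4 µM puromycin in all 3 groups, the control included, so no group shows the line without virus or drug. Each group is 1 sample of 1 cell line with 3 numbered tables, treated as 3 libraries. Nothing in the labels says whether a table stands for its own culture, its own library or a further run of 1 library. The p-values therefore measure only how far the tables of a sample spread, and that spread may be technical.

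Tight junctions are belts of contact at the apical edge of epithelial cells that limit what passes between them. Claudins are tetraspan proteins that polymerise into the strands of the belt and set which ions cross it. Occludin and tricellulin, the products of OCLN and MARVELD2, are MARVEL-domain proteins of the same strands, and tricellulin gathers where 3 cells meet. JAM-A, the product of F11R, is an immunoglobulin-like adhesion protein, and the zonula occludens proteins, products of the TJP genes, bind claudin tails through PDZ domains and tie the strands to actin. In stratified squamous epithelium such as the esophagus, tight junctions lie in the upper living layers, and claudins are often altered in squamous carcinoma.

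Total expected counts were 14660821 to 16092417 per library. Of 9 squamous markers (KRT5, KRT14, KRT6A, TP63, SOX2, DSG3, DSC3, SFN and PKP1) all 9 were tested. Their summed level was 3712 to 3775 TPM in control, 2110 to 2141 TPM with sh1 and 2544 to 2691 TPM with sh2. Most of that sum came from KRT5 and SFN, with means of 1610 and 1619 TPM in control. With sh1, 5 of the 9 squamous markers were called lower and 2 higher, beside 34.6% lower and 34.7% higher among all tested genes. With sh2, 7 were called lower and 2 higher, beside 34.3% and 34.2%. The markers of other cell types were low but also differed between groups. Fibroblast markers (6 genes, nearly all of the sum from COL1A1) summed to 20.3 to 21.46 TPM in control, 21.51 to 24.6 TPM with sh1 and 26.7 to 28.1 TPM with sh2. For leukocyte markers (5 genes, 1 of them at 0 throughout) the sums were 3.94 to 4.72, 5.45 to 6.05 and 5.14 to 6.98 TPM, and for endothelial markers (4 genes) 6.39 to 7.25, 7.45 to 10.6 and 7.75 to 8.83 TPM. In these 3 lists the sum of every hairpin library lay above that of every control library, but single genes differed in direction. Of the endothelial markers, CDH5 went from a mean of 4.72 TPM in control to 7.61 TPM with sh1 and 6.86 TPM with sh2. VWF went from 1.04 TPM to 0.637 and 0.41 TPM and was called lower with both hairpins, and PECAM1 was called with neither. Columnar markers (5 genes, 2 of them at 0 throughout) summed to 0.13 to 0.22, 0.20 to 0.46 and 0.35 to 0.85 TPM. These marker sums stand beside every junction value below, and their part in those values was not tested. In such bulk samples, fewer cells that express a gene and less RNA per cell cannot be told apart.

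Of the 9 junction genes, CLDN1 and TJP3 moved by more than 2-fold. CLDN1 fell with both hairpins and TJP3 fell with sh1 alone, while it rose slightly with sh2. The other 7 genes moved by at most 0.65 on the log2 scale in any of the 3 comparisons, and CLDN7 and MARVELD2 were called in none of them. A gene was called at an adjusted p below 0.05 in the quasi-likelihood test of edgeR, adjusted over all tested genes by the method of Benjamini and Hochberg. Levels are given in TPM, which is scaled for transcript length and can be set against other genes. Fold changes are log2 values ± SE from counts scaled between libraries by TMM, so a gene's TPM and its fold change can differ slightly in direction.

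**Figure D1:**
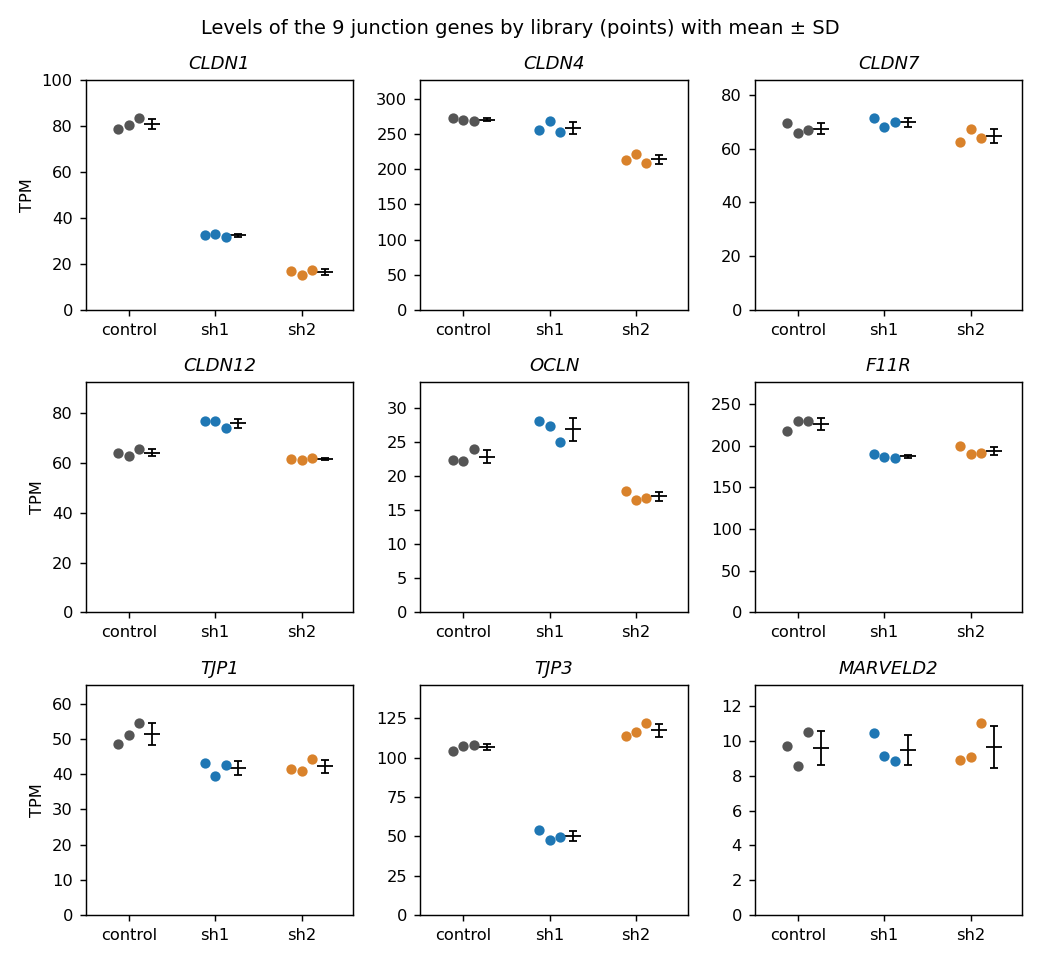
TPM of each junction gene (vertical axes, from 0) in the 3 libraries of control, sh1 and sh2 (points), with the mean ± SD beside them. CLDN1 steps down from 79.0 to 83.6 TPM in control to at most 17.4 TPM with sh2, and TJP3 is low in the sh1 libraries alone.

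With sh1 against control, 6 of the 9 genes were called, 2 higher (CLDN12 and OCLN) and 4 lower (CLDN1, F11R, TJP1 and TJP3). Over all tested genes 69.3% were called, 34.7% higher and 34.6% lower, so a count of 6 says nothing particular about these genes. CLDN1 and TJP3 passed a fold of 2 in that comparison, as did 9.15% of all tested genes. The median log2 fold change was -0.02 over the 9 genes and 0.01 over all tested genes.

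With sh2 against control, 6 were called again, 1 higher (TJP3) and 5 lower (CLDN1, CLDN4, OCLN, F11R and TJP1). The share called over all tested genes was 68.5%, with 34.2% higher and 34.3% lower. CLDN1 passed a fold of 2, against 7.75% of tested genes, and the median was -0.15 over the 9 genes and 0.00 over all tested genes. Both comparisons use the same control libraries, so their values are given side by side and likeness between them is not counted as a result.

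In the direct comparison of sh1 with sh2, 6 genes were called, 4 higher with sh1 (CLDN1, CLDN4, CLDN12 and OCLN) and 2 lower (F11R and TJP3). Among all tested genes 69.8% were called, 34.2% higher and 35.6% lower. TJP3 passed a fold of 2 there, against 8.28% of tested genes. The median was 0.09 over the 9 genes and 0.00 over all tested genes.

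**Figure D2:**
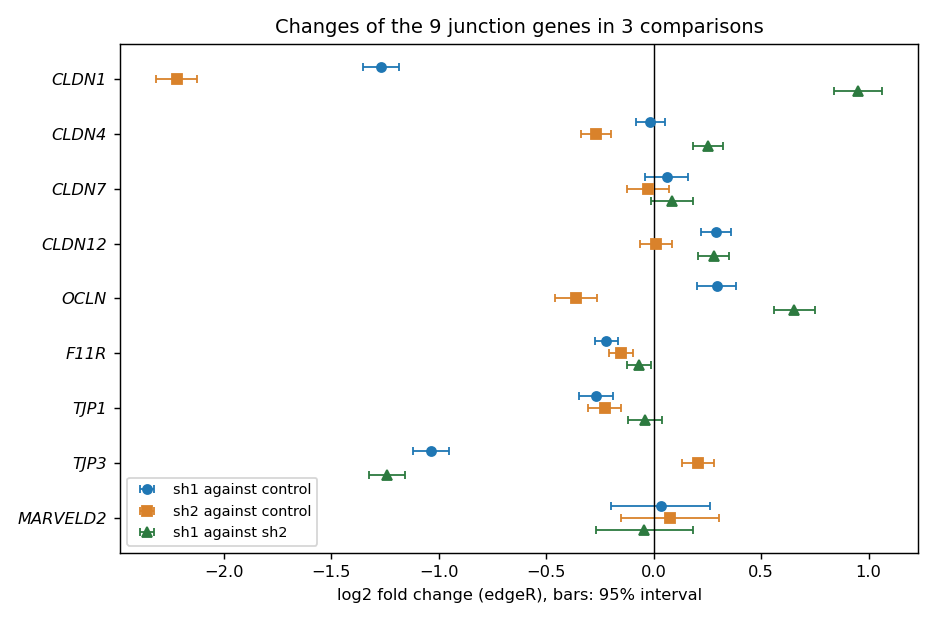
Log2 fold change (horizontal axis) of each junction gene in 3 comparisons, with 95% intervals from the edgeR fit. CLDN1 lies at -1.27 with sh1 and -2.22 with sh2, TJP3 lies on both sides of 0, and the intervals of CLDN7 and MARVELD2 include 0 in all 3 comparisons.

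CLDN1 (Entrez 9076) encodes a barrier-forming claudin that is needed for the permeability barrier of stratified epithelia such as the epidermis. Its level was 79.0, 80.5 and 83.6 TPM in the control libraries, 32.6, 33.05 and 31.9 TPM with sh1, and 17.2, 15.15 and 17.4 TPM with sh2. The 3 groups did not overlap, and sh2 lay lowest. The log2 fold change was -1.27 ± 0.042 with sh1 (adjusted p = 1.10e-21), a level 2.41-fold lower than in control. With sh2 it was -2.22 ± 0.047 (adjusted p = 2.68e-26), 4.66-fold lower. The fall was deeper with sh2 than with sh1, by 0.95 ± 0.055 on the log2 scale (adjusted p = 1.33e-15). Of all tested genes, 5.23% had a change at least as large as that of CLDN1 with sh1, and 0.744% had one as large with sh2. Its deposited counts were whole in all 9 libraries, and its place among tested genes by TPM was the percentile 81.9 in control, 61.0 with sh1 and 42.4 with sh2.

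CLDN1 and TJP3, which carried the changes of greatest size, are shown with their sequence before the RefSeq transcript start, so that the letters there can be read beside the values. The windows are from a RefSeq promoter table of build GRCh38.p14, not the build of the counts (hg19), and run 5′ to 3′ on the gene's strand. Capitals mark the E-box CAGGTG, the letters that Snail and ZEB family repressors of claudin and occludin genes are known to bind, and the GC box GGGCGG, each on either strand. The CLDN1 window ends 29 bases short of the RefSeq start, where an exon of another annotation begins.
CLDN1, chr3:190322476-190322696, minus strand: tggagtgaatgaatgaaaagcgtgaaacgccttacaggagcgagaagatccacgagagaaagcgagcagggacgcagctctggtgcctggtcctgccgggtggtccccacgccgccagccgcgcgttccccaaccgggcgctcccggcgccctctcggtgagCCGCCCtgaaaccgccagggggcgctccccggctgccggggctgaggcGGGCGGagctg
TJP3, chr19:3721487-3721736, plus strand: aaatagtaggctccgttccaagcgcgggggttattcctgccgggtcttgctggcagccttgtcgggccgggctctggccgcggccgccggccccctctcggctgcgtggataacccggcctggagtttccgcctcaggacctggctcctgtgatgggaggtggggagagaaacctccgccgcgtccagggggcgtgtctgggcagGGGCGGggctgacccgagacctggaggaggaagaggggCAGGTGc

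The CLDN1 window held 2 GC boxes and no E-box, and the TJP3 window held 1 of each. The other TJP3 window of the table lies in an annotated exon and is not shown. Of the 9 genes 8, all but F11R, had an entry, with 14 windows of 250 bases in all. An E-box was found in 5 of the 14 windows, 1 of CLDN7 (4 matches), both of OCLN, 1 of TJP1 and 1 of TJP3. Over all 35116 such windows in the table, 17.5% held an E-box, 42.6% a GC box, 6.57% the AP-1 letters TGANTCA and 1.49% the grainyhead letters AACCNGTT. CLDN4 had 2 AP-1 matches, and no window of the 9 genes had a grainyhead match. Several windows of a gene can overlap, as those of OCLN do, and a match describes letters, not a bound site.

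CLDN4 (Entrez 1364), a sealing claudin and a receptor for the enterotoxin of Clostridium perfringens, had the highest level of the 9 genes in every group. It stood at 273, 269.5 and 269 TPM in control, 256, 268 and 252 TPM with sh1, and 213, 221 and 209 TPM with sh2. The sh2 libraries lay below all others, and the sh1 libraries lay just under the control libraries. Its log2 fold change was -0.27 ± 0.034 with sh2 (adjusted p = 3.21e-08), and with sh1 it was -0.02 with a 95% interval of -0.08 to 0.05 (adjusted p = 0.675). The sh1 libraries exceeded the sh2 libraries by 0.25 ± 0.034 (adjusted p = 1.08e-07).

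CLDN7 (Entrez 1366), a claudin that also binds EpCAM at the lateral membrane, was called in no comparison. Its level was 69.5, 65.75 and 67.0 TPM in control, 71.3, 68.1 and 69.7 TPM with sh1, and 62.5, 67.4 and 64.0 TPM with sh2, and the control range overlapped that of each hairpin. The log2 fold change had a 95% interval of -0.04 to 0.16 with sh1 and -0.12 to 0.07 with sh2. Neither interval shows that the level was equal between groups. Under limma on log2 FPKM the sh1 value of 0.09 passed the threshold (adjusted p = 0.0412 with a pseudocount of 1).

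CLDN12 (Entrez 9069) encodes a claudin that lacks the usual PDZ-binding tail and has been linked to paracellular calcium passage. Its level was 64.1, 62.8 and 65.4 TPM in control, 76.6, 76.95 and 73.9 TPM with sh1, and 61.4, 61.25 and 62.1 TPM with sh2. The sh1 libraries stood above all others, and the sh2 libraries lay just under the control libraries in TPM. By the count fit CLDN12 rose by 0.29 ± 0.035 with sh1 (adjusted p = 1.66e-08), while sh2 gave 0.01 with a 95% interval of -0.06 to 0.08 (adjusted p = 0.802). The difference between the hairpins was 0.28 ± 0.035 (adjusted p = 2.99e-08). With sh1 CLDN12 thus rose while CLDN1 fell.

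These 4 claudins held most of the claudin transcripts of the cells. Over 24 claudin genes the summed level was 500.1 to 505 TPM in control, 446 to 468 TPM with sh1 and 368 to 383 TPM with sh2. These sums are in TPM, without the TMM scaling of the fold changes, so part of their fall may come from the scale. CLDN1 made up 16.1% ± 0.448 of that sum in control, 7.11% ± 0.0426 with sh1 and 4.45% ± 0.422 with sh2 (SD, n = 3). CLDN4 took 53.7% ± 0.412, 56.6% ± 0.659 and 57.3% ± 0.598 in the same order, and the other 20 claudins together 4.00% ± 0.279, 4.46% ± 0.3 and 4.48% ± 0.114. The shares of CLDN7 went from 13.4% ± 0.340 to 15.3% ± 0.611 and 17.3% ± 0.379, and those of CLDN12 from 12.7% ± 0.196 to 16.6% ± 0.154 and 16.5% ± 0.431. Shares are relative, so the fall of CLDN1 raises the others even where their levels held. The ratio of CLDN4 to CLDN1 transcripts, both per length, was 3.34 ± 0.117 in control, 7.96 ± 0.133 with sh1 and 13.0 ± 1.41 with sh2, with no overlap between groups.

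**Figure D3:**
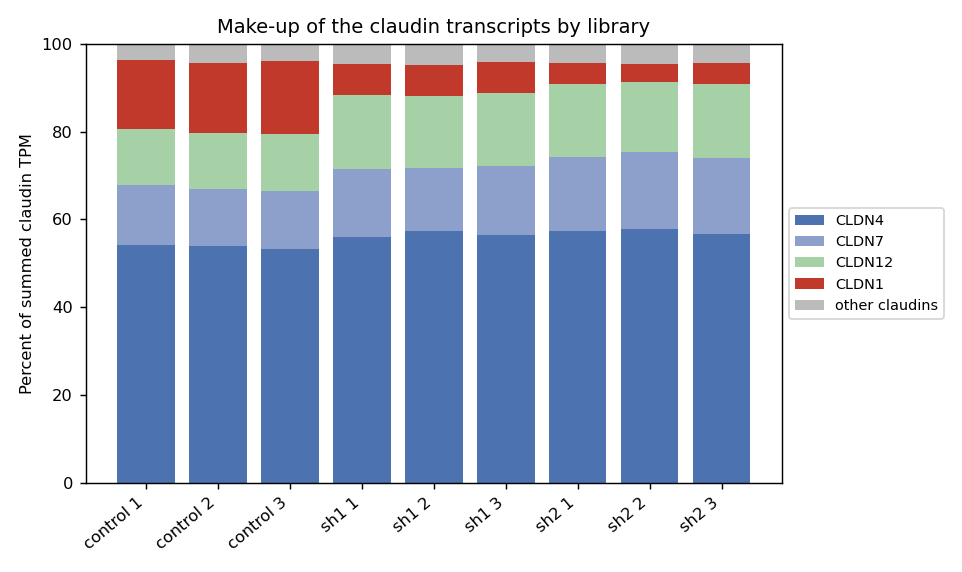
Percent of the summed TPM of 24 claudin genes (vertical axis) taken by CLDN4, CLDN7, CLDN12, CLDN1 and the other 20 claudins in each of the 9 libraries. The CLDN1 band narrows from a control mean of 16.1% to 7.11% (sh1) and 4.45% (sh2).

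The occludin gene was called with both hairpins, in opposite directions, and the tricellulin gene with neither. OCLN (Entrez 100506658), the first transmembrane protein named at tight junctions, was at 22.35, 22.25 and 23.9 TPM in control, 28.1, 27.3 and 24.99 TPM with sh1, and 17.75, 16.5 and 16.8 TPM with sh2. The groups did not overlap, with sh1 highest and sh2 lowest. It rose by 0.29 ± 0.044 with sh1 (adjusted p = 8.73e-07) and fell by 0.36 with sh2 (SE 0.047, adjusted p = 6.77e-08). The hairpins differed by 0.65 ± 0.046 (adjusted p = 1.26e-13), a 1.57-fold higher level with sh1, and 20.2% of all tested genes differed at least that much.

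MARVELD2 (Entrez 153562), the tricellulin gene, had the lowest level of the 9 genes in each group. Its values were 9.7, 8.55 and 10.5 TPM in control, 10.4, 9.15 and 8.85 TPM with sh1, and 8.88, 9.07 and 11.03 TPM with sh2, and all groups overlapped. Its log2 fold change had a 95% interval of -0.20 to 0.26 with sh1 and of -0.15 to 0.30 with sh2, the widest of the 9 genes, and rests on 401, 398 and 442 summed counts in control, sh1 and sh2. The ratio of OCLN to MARVELD2 transcripts per length was 2.39 ± 0.183 in control, 2.84 ± 0.147 with sh1 and 1.78 ± 0.241 with sh2. The deposited counts of OCLN, MARVELD2, CLDN4 and F11R were not whole in any of the 9 libraries, so their reads were split between features and the split is uncertain.

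F11R (Entrez 50848), the JAM-A gene, was the second most abundant of the 9 in every group. It stood at 217, 229 and 230.0 TPM in control, 189, 187 and 186 TPM with sh1, and 199.6, 190.4 and 191 TPM with sh2. All hairpin libraries lay below all control libraries, and the hairpins did not overlap. F11R fell by 0.22 with sh1 (SE 0.027, adjusted p = 2.35e-08) and by 0.15 with sh2 (SE 0.027, adjusted p = 1.15e-05). The hairpins differed by -0.07 ± 0.027 (adjusted p = 0.0271), a call that 8 of the 16 alternatives with a test ended, with adjusted p up to 0.128.

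TJP1 (Entrez 7082) and TJP3 (27134) encode ZO-1, which nucleates strands from claudins, and ZO-3, a scaffold found mainly in epithelia. TJP1 was at 48.5, 51.2 and 54.5 TPM in control, 43.05, 39.4 and 42.7 TPM with sh1, and 41.4, 40.9 and 44.4 TPM with sh2. The hairpin libraries overlapped each other and lay under all control libraries. It fell by 0.27 with sh1 (SE 0.039, adjusted p = 3.80e-07) and by 0.23 with sh2 (SE 0.038, adjusted p = 4.84e-06), and the difference between hairpins had a 95% interval of -0.12 to 0.04 (adjusted p = 0.357).

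TJP3 was at 104, 107 and 108 TPM in control, 53.9, 47.8 and 49.3 TPM with sh1, and 113, 116 and 122 TPM with sh2. The sh1 libraries lay far under all others, and the sh2 libraries lay above control. Its log2 fold change was -1.04 ± 0.041 with sh1 (adjusted p = 1.16e-19), 2.05-fold lower, and 0.21 ± 0.036 with sh2 (adjusted p = 9.00e-06). Between the hairpins it was -1.24 ± 0.040 (adjusted p = 1.08e-21), 2.36-fold lower with sh1, and 4.68% of tested genes differed by as much. TJP3 transcripts per length were 2.08 ± 0.085 times those of TJP1 in control, 1.21 ± 0.050 times with sh1 and 2.78 ± 0.060 times with sh2 (SD, n = 3), with no overlap between groups.

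By mean TPM in control the order of the genes was CLDN4, F11R, TJP3, CLDN1, CLDN7, CLDN12, TJP1, OCLN and MARVELD2, and no neighbours overlapped. With sh1 CLDN1 stood in place 7, between TJP1 and OCLN, and TJP3 in place 5, again with no overlap between neighbours. With sh2 CLDN1 stood in place 8, with a range that overlapped that of OCLN (16.6 ± 1.26 and 17.0 ± 0.668 TPM). CLDN4, F11R and MARVELD2 held places 1, 2 and 9 in all 3 groups.

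Profiles most like those of CLDN1 and TJP3 were sought among the other 13579 tested genes, by the root mean square difference of log2 CPM over the 9 libraries after each gene was centred on its own mean. For CLDN1 the closest were PER1 (0.0823), DESI2 (0.137) and PROSER1 (0.155), and PER1 alone lay within 0.1. PER1, a repressor of the circadian clock, had log2 fold changes of -1.34 with sh1 and -2.198 with sh2. For TJP3 the closest were PLEKHB2 (0.0447), TINAGL1 (0.0475) and NF1 (0.0495), and 21 genes lay within 0.1. NF1, the neurofibromin gene, changed by -1.07 with sh1 and 0.21 with sh2. These genes were picked for their likeness, so the likeness is a description.

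**Figure D4:**
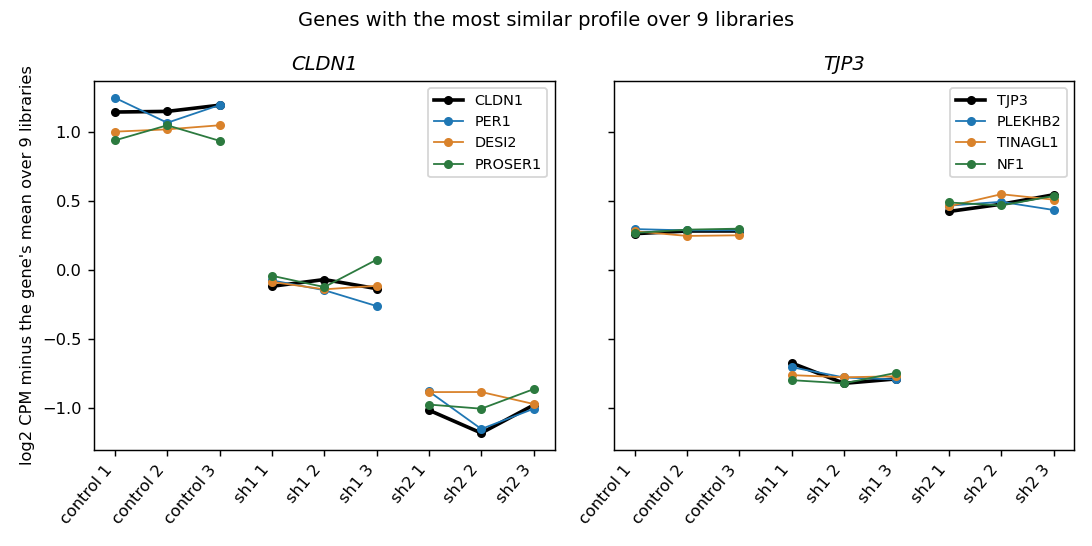
Log2 CPM minus each gene's mean (vertical axis) in the 9 libraries for CLDN1 and TJP3 (black) and the 3 genes with the closest profile. CLDN1 and PER1 step down from control to sh1 to sh2, and TJP3 and its neighbours are low in the sh1 libraries alone.

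The other tight junction genes were taken from 3 lists of 54 genes in all, of which 40 were tested. With sh1 8 were called higher and 15 lower, and with sh2 11 higher and 16 lower. In the comparison of the hairpins 15 were higher with sh1 and 8 lower. Their median log2 changes were -0.01, -0.11 and 0.13 in these comparisons, beside 0.01, 0.00 and 0.00 over all tested genes. The calls come to 23, 27 and 23 of 40, beside 69.3%, 68.5% and 69.8% of all tested genes.

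Of 20 other claudins 8 were tested, and none reached 6 TPM as a group mean. With sh1 1 was called lower and none higher, and with sh2 1 lower and 1 higher, fewer than the 69.3% and 68.5% called over all tested genes. These 8 genes had only 93 to 447 counts each over the 9 libraries, and an SE of 0.16 to 0.40 with sh1. So few calls therefore do not show that these genes changed less than others. CLDN15, which forms cation pores, fell by 1.07 with sh2 (SE 0.17, adjusted p = 2.66e-06) from 5.78 ± 0.75 TPM in control to 2.35 ± 0.12 TPM. With sh1 its log2 change of -0.29 did not pass the test (adjusted p = 0.104). CLDN16, known for magnesium reabsorption in the kidney, fell by 0.94 with sh1 (SE 0.26, adjusted p = 0.00218) on 222 counts in all. CLDN23 rose by 0.57 with sh2 (SE 0.18, adjusted p = 0.0076), a call lost under DESeq2 (adjusted p = 0.0546) and without control library 1. CLDN9 and the sealing claudin CLDN3, at 2.42 to 3.35 TPM by group, were called in no comparison.

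Among 11 other membrane proteins 9 were tested, with 2 called higher and 4 lower with sh1, and 2 higher and 5 lower with sh2. These counts are near the 69.3% and 68.5% called over all tested genes, and the medians were -0.13 and -0.16. EPCAM, an adhesion protein that binds CLDN7 and shields it from degradation, stood at 484 ± 15 TPM in control, 928 ± 9.7 TPM with sh1 and 657 ± 20 TPM with sh2. It rose by 0.99 ± 0.028 with sh1 (adjusted p = 1.61e-23) and 0.51 ± 0.028 with sh2 (adjusted p = 3.51e-16). LSR, the angulin that recruits tricellulin to corners between cells, fell by 0.13 and 0.16 from 397 ± 5.1 TPM. CXADR, the coxsackie and adenovirus receptor, fell by 0.52 with sh1, and with sh2 by 0.14 (adjusted p = 0.0038), which was lost in both fits on FPKM. BVES, an adhesion protein that binds ZO-1, fell by 0.78 with sh2 alone among the control comparisons, and the hairpins differed by 0.62 ± 0.11.

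All 23 genes of the scaffold and polarity list were tested. With sh1 6 were called higher and 10 lower, and with sh2 8 higher and 10 lower, near the 69.3% and 68.5% called over all tested genes. The medians were -0.02 with each hairpin. CGN, the cingulin gene, whose product links ZO-1 to actomyosin, rose by 0.63 ± 0.045 with sh1 and 0.84 ± 0.043 with sh2 from 25.9 ± 1.5 TPM. PRKCI, the atypical protein kinase C of the polarity complex, fell by 0.78 and 0.96 from a control level of 82.2 ± 2.9 TPM to 46.3 ± 1.0 TPM and 40.3 ± 1.2 TPM. RAB13, a small GTPase that traffics claudins and occludin, rose by 0.36 and 0.13 from 171 ± 6.8 TPM. ARHGEF2, the RhoA exchange factor held at junctions by cingulin, fell by 0.39 with sh1 and rose by 0.15 with sh2. YBX3, a ZO-1-bound transcription factor at 698 ± 23 TPM in control, fell by 0.16 with sh2. MAGI2 fell by 1.45 with sh1 on 109 counts in all and a level of 0.317 ± 0.10 TPM in control.

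**Figure D5:**
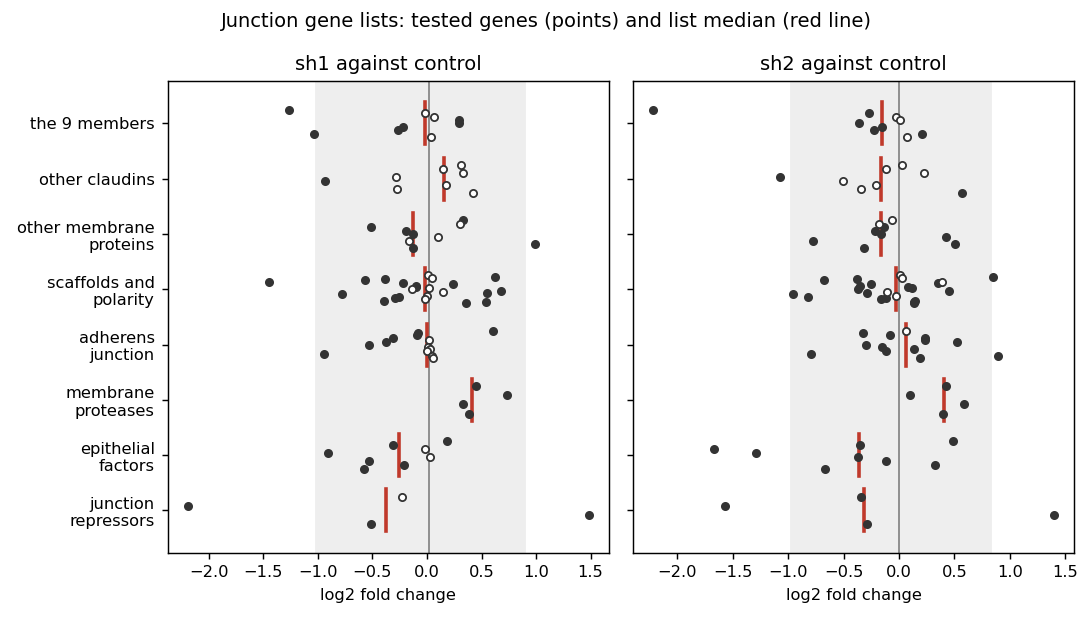
Log2 fold change (horizontal axes) of each tested gene of the junction lists with sh1 and with sh2, filled where called and open where not, with the list median in red and the range of the 5th to 95th percentile of all tested genes in grey. The 4 membrane proteases and inhibitors lie above 0 in both panels, with medians of 0.42 and 0.41, and the medians of the 8 epithelial factors are -0.26 and -0.36. Over all tested genes the medians are 0.01 and 0.00.

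The 13 adherens junction genes, whose belt lies just below the tight junction, were all tested. With sh1 1 was called higher and 6 lower, beside 34.7% and 34.6% of all tested genes, and with sh2 6 higher and 6 lower, beside 34.2% and 34.3%. Their median log2 changes were 0.00 and 0.06, and those over all tested genes 0.01 and 0.00. JUP (plakoglobin) fell by 0.38 ± 0.027 with sh1 and rose by 0.52 ± 0.027 with sh2, and the hairpins differed by -0.90 ± 0.027 (adjusted p = 2.02e-22). NECTIN4 rose by 0.89 ± 0.038 with sh2 (adjusted p = 7.34e-19) and was at 0.05 with sh1 (adjusted p = 0.34). NECTIN3 fell by 0.95 and 0.80 from 4.05 ± 0.44 TPM. CDH3, the P-cadherin gene, fell by 0.09 and 0.32, CTNNA1 by 0.09 and 0.08, and CTNND1 rose by 0.23 with sh2. CDH1, the E-cadherin gene, which was chosen after its values were seen, was the 1 gene called higher with sh1, by 0.60 ± 0.028 from 218 ± 8.5 TPM, and was at 0.06 with sh2 (adjusted p = 0.0595).

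The matriptase pathway, whose proteases act at the lateral membrane and on EpCAM and claudins, was called higher for 4 of 4 genes with each hairpin, beside 34.7% and 34.2% of all tested genes. ST14 (matriptase) rose by 0.45 and 0.42, PRSS8 (prostasin) by 0.74 and 0.10, and their inhibitors SPINT1 by 0.33 and 0.59 and SPINT2 by 0.38 and 0.40. The largest adjusted p was 0.0177, for PRSS8 with sh2, a call lost under DESeq2 (adjusted p = 0.0643) and without control library 1, control library 2 or sh2 library 3. The list was drawn up with earlier results of these data known.

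Transcription and splicing factors of epithelial junctions were given as 8 genes, of which 5 were called lower and 1 higher with sh1, and 6 lower and 2 higher with sh2. That is 6 and 8 of 8 called, beside 69.3% and 68.5% of all tested genes. By direction, 34.6% of all tested genes were called lower and 34.7% higher with sh1, and 34.3% and 34.2% with sh2. GRHL3, a grainyhead factor of the epidermal barrier, fell by 1.67 ± 0.12 with sh2 (adjusted p = 1.99e-13) and was at -0.01 with sh1 (adjusted p = 0.90). Its relative GRHL2, a known activator of claudin genes, fell by 0.31 and 0.35, and GRHL1 rose by 0.18 and 0.49. OVOL1 fell by 0.91 and 1.29, and OVOL2 fell by 0.37 with sh2, a call lost under DESeq2 and without sh2 library 1. ELF3 fell by 0.53 and 0.11 from 501 ± 3.6 TPM. Of the splicing factors, ESRP1 fell by 0.21 with sh1 and rose by 0.33 with sh2, and ESRP2 fell by 0.58 and 0.67.

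Repressors of claudins and occludin were given as 6 genes, 4 of them tested. With sh1 1 was called higher and 2 lower, and with sh2 1 higher and 3 lower, beside 69.3% and 68.5% of all tested genes called. The shares called lower over all tested genes were 34.6% and 34.3%. SNAI2, the Slug gene, stood at 28.8 ± 0.96 TPM in control, 6.08 ± 0.86 TPM with sh1 and 9.27 ± 0.82 TPM with sh2. It fell by 2.195 ± 0.096 with sh1 (adjusted p = 1.17e-18) and 1.57 ± 0.086 with sh2 (adjusted p = 3.41e-16). TWIST2 fell by 0.52 and 0.29 from 21.6 ± 0.75 TPM, the sh2 call being lost under DESeq2 (adjusted p = 0.0512). SNAI1 was at -0.23 with sh1 (adjusted p = 0.142) and fell by 0.34 with sh2 (adjusted p = 0.0287), a call that DESeq2 and the fits without control library 3, sh2 library 2 or sh2 library 3 did not make. ZEB2 rose by 1.49 and 1.403 on 131 counts in all, from 0.12 ± 0.056 TPM to 0.323 ± 0.090 and 0.30 ± 0.060 TPM. ZEB1 had too few counts to be tested, and TWIST1 was at 0 in all 9 libraries.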

How the data were processed

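Total RNA of 3 KYSE510 samples was sequenced on a BGISEQ platform, per the labels' protocols. RSEM 1.2.12, Bowtie2 2.2.5, HISAT2 2.0.4, DESeq2 1.4.5 and the build hg19 appear in the submitters' processing notes, with no role given. Per the file headers, each table holds an expected count, a TPM, an FPKM and lengths for 19266 Entrez identifiers. Expected counts deposited by the authors need not be whole (in each library 70.0% to 70.4% were within 1e-06 of one that is) and were rounded. TPM values deposited by the authors were used for levels, and deposited FPKM values only in 2 alternatives. The use of strand in counting is not given in the sources used, and antisense and overlapping genes are therefore uncertain. RefSeq names (GRCh38.p14) matched 19223 identifiers.

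In R 4.3.3 with edgeR 4.0.16, filterByExpr kept 13580 genes, TMM scaled the libraries, and 1 quasi-likelihood fit over all 9 libraries had group as its only term. The SE is the absolute log2 fold change over the square root of F, which understates the uncertainty of genes with few counts. The biological coefficient of variation was 2.33%, here the spread between tables. Tables of a sample differed by a chi-square per gene of 1.41 to 2.44 (over genes whose mean count was 20 or more), above sampling noise. A floor of 3 counts is 0.187 to 0.204 CPM, for counting error only. The procedure was tested on simulated data.

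The members and lists were chosen with earlier results of these data known. Named from each list were the 4 tested genes of highest mean TPM and the 3 of largest called change, or any gene of a list of 8 or fewer. Some genes that the rule names are not reported here. The alternatives were RLE scaling, DESeq2 1.42.0, no filter, limma 3.58.1 on log2(FPKM + 1) and log2(FPKM + 0.1) for genes whose mean FPKM was 1 or more, only the 2 groups compared, the table number as a block, each library left out, and summed tables. Fold changes on log2(FPKM + pseudocount) understate those of low genes. Upstream windows were 250 bases. Printed windows exclude exons of GENCODE v29.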

Additional observations from a re-analysis of the deposited data

Results flagged for a closer look

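Of the 9 junction genes 6 differed between the 2 hairpin samples in the direct comparison of sh1 with sh2. That test of the difference itself was the quasi-likelihood test of edgeR (p adjusted by the method of Benjamini and Hochberg). TJP3 differed most, with a log2 difference (sh1 minus sh2) of -1.24 (adjusted p = 1.08e-21): it fell with sh1 and rose with sh2. CLDN1 fell with both hairpins and differed by 0.951 (adjusted p = 1.33e-15). OCLN, called higher with sh1 and lower with sh2, differed by 0.655 (adjusted p = 1.26e-13). CLDN12 differed by 0.279 (adjusted p = 2.99e-08) and CLDN4 by 0.252 (adjusted p = 1.08e-07). F11R differed by -0.0683 (adjusted p = 0.0271), a small difference whose call did not hold in 8 of 16 alternatives. Over all tested genes 69.8% were called in this comparison, so a count of 6 of the 9 says nothing particular about these genes. Each hairpin is 1 sample, so a difference between hairpins and a difference between 2 cultures cannot be told apart.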

How the results depend on the processing

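With the settings changed one at a time (16 alternatives with a test), the number of the 9 junction genes called was 6 to 7 with sh1, 6 with sh2 and 5 to 6 between the hairpins. The number of the 40 other junction genes called was 20 to 25, 21 to 28 and 21 to 23, with the number tested moving with the filter. Same-numbered tables showed no shared deviation (correlations of deviations from -0.0767 to 0.0426). A small shared effect could also give values near these, so whether the numbers pair the libraries is not known. The replicate block left 6, 6 and 6 junction genes and 23, 27 and 23 others called, and it changed no call of the 9 genes. Every called change of the 9 genes kept its direction in all alternatives, and every call but F11R between the hairpins was kept. That call was lost without the filter (adjusted p = 0.0575), in both FPKM fits and without control library 2, any sh1 library or sh2 library 1. CLDN7 was called in the FPKM fits, at 0.09 to 0.10 with sh1 and between the hairpins. Only values that were never called changed sign, and the cause was not tested. CLDN7 with sh2 was 0.00179 with FPKM and a pseudocount of 1, 0.00184 with 0.1, and -0.0582 to 0.00772 when 1 library was left out. CLDN12 with sh2 was -0.000522 without the filter and -0.0120 to 0.0175 with 1 library left out. With 1 library left out, CLDN4 with sh1 was -0.0499 to 0.00270. MARVELD2 was -0.0469 to 0.0972 with sh1, -0.0368 to 0.142 with sh2 and -0.111 to 0.0676 between the hairpins. No scaling moved the median of all genes by more than 0.1 on the log2 scale. With the tables of a sample summed, 1 library per group is left and no test was possible: CLDN1 then stood at -1.27 and -2.22 and TJP3 at -1.04 and 0.20 with sh1 and sh2. Depth limits MARVELD2 most, at 398 to 442 counts per group.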
